A study of Mus musculus with 30 samples.

Results

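Homeostatic microglia genes are the transcripts by which resting microglia of the brain are usually recognised. The 9 followed here are Cx3cr1, P2ry12, Tmem119, Csf1r, Aif1, C1qa, C1qb, C1qc and Trem2. They were taken by gene symbol from a table of 18240 genes, and all 9 were present and passed the filter on low values (a mean normalised count of at least 10), as did 16824 genes in all.

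Microglia are the resident macrophages of the brain. They depend on signals through the receptor encoded by Csf1r, contact neurons through receptors such as those encoded by Cx3cr1 and P2ry12, and make most of the brain's complement C1q, which tags synapses and debris. When microglia react to damage, transcripts such as P2ry12, Tmem119 and Cx3cr1 typically fall while Trem2-dependent genes rise, so the homeostatic set is a common readout of microglial state in bulk tissue.

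Poly(A) RNA of prefrontal cortex was sequenced from C57BL/6J mice at postnatal day 40, with stranded libraries. Adnp encodes a chromatin protein, and the mice were wild type (WT) or heterozygous (HT) for it. WT mice received vehicle (4 female and 4 male libraries). HT mice received vehicle (4 female and 3 male), fluoxetine, a serotonin reuptake inhibitor (4 female and 4 male), or lithium, a mood stabiliser (3 female and 4 male). All 30 libraries carry 1 batch label. No drug-treated WT group was analysed here, so each drug was compared within HT mice. The sources used here give neither doses nor durations, and do not describe the mutant allele. Whether replicates were separate mice is not in the labels, so the spread that the p-values rest on may be technical.

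Reads recovered from the normalised counts and summed over the 18240 genes ran from 23771758 to 34307061 per library. As a check of the genotype labels, counts of Adnp were added to those of Gm20716, an annotated gene with which it shares exons. The summed normalised count was 4316 ± 75.2 (SD, n = 8) in WT libraries and 3658 ± 121 (SD, n = 22) in HT libraries, and the highest HT library (3887) lay below the lowest WT library (4226). The count under the symbol Adnp alone was higher in HT (2196 ± 160, n = 22) than in WT (1898 ± 157, n = 8). That under Gm20716 alone was lower in HT (1462 ± 174, highest 1850) than in WT (2417 ± 158, lowest 2167), without overlap, so the lower sum lies in that row. The split of reads between the 2 rows is uncertain because of the shared exons. Libraries also differed in markers of neighbouring tissue. The summed count of 11 striatal markers ran from 6385 to 48790 and that of 12 olfactory bulb and neuroblast markers from 2772 to 25530, with the highest values of the latter in HT lithium male 4 and HT vehicle female 1.

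The 9 genes took between 0.0271% and 0.0315% of each library's recovered reads (median 0.0289%). Their summed normalised count was 8248 ± 190 (SD, n = 8) in WT vehicle, 8400 ± 407 (n = 7) in HT vehicle, 8433 ± 322 (n = 8) in HT fluoxetine and 8421 ± 302 (n = 7) in HT lithium libraries, and the 4 ranges overlapped. The whole range over 30 libraries, 7709 to 9121, spanned 1.18-fold. In bulk tissue, fewer microglia and less RNA per microglial cell cannot be told apart.

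The range of the 9 genes was similar to that of several other lists in the same libraries and narrower than that of others. The summed counts spanned 1.16-fold for other microglia and macrophage genes, 1.17-fold for disease-associated microglia genes and 1.23-fold for astrocyte markers, with ligands and partners of the receptors between the last 2 of these. Inflammatory activation genes spanned 1.29-fold, complement genes 1.35-fold, oligodendrocyte precursor markers 1.37-fold, inhibitory neuron markers 1.38-fold, endothelial and pericyte markers 1.4-fold and excitatory neuron markers 1.53-fold. Border-associated macrophage markers spanned 1.96-fold. The sums spanned 2.63-fold for oligodendrocyte markers, 3.73-fold for meningeal fibroblast markers, 7.64-fold for striatal markers and 9.21-fold for olfactory bulb and neuroblast markers. These are descriptions of list sums, which are weighted by their most abundant genes.

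**Figure D1:**
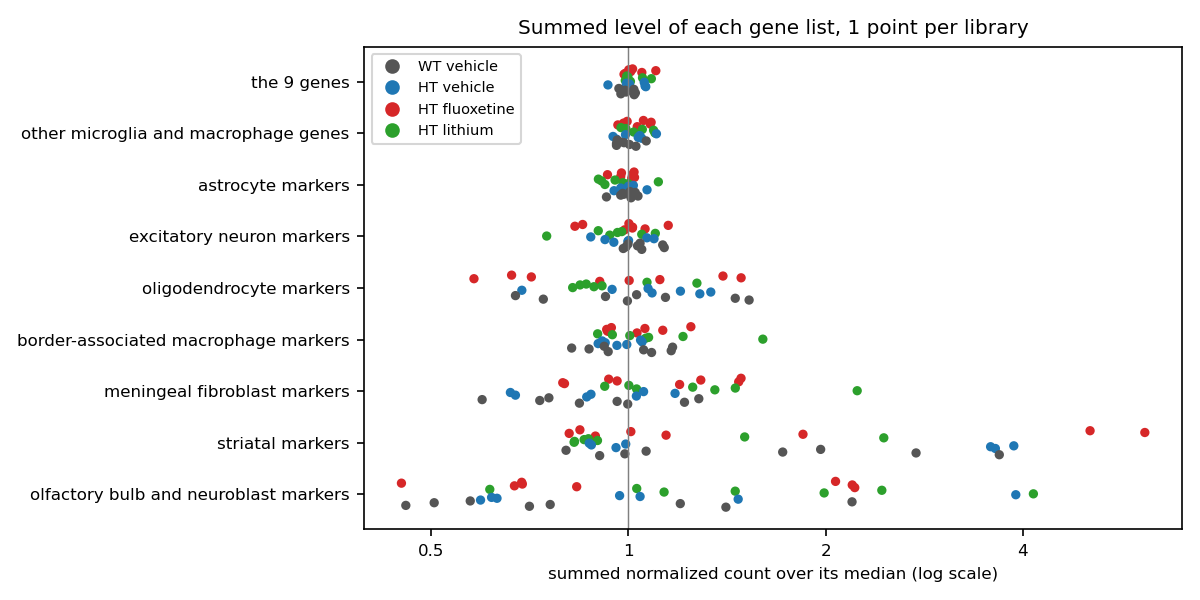
Summed normalised count of each gene list in each library, divided by the list's median over 30 libraries (log scale), with 1 point per library coloured by genotype and treatment. The sums of the 9 genes lie within a 1.18-fold range, while striatal markers span 7.64-fold and olfactory bulb and neuroblast markers 9.21-fold.

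Markers of other immune cells were examined next to the 9 genes. Of 15 markers of border-associated macrophages, which live along vessels and meninges, 14 were listed, and none of these was at 0 in any library. Their summed count was 1015 to 1447 in WT vehicle, 1114 to 1300 in HT vehicle, 1148 to 1543 in HT fluoxetine and 1112 to 1987 in HT lithium libraries. Mrc1 had a median normalised count of 197.3 and Cd163 of 60.81. Of 18 blood leukocyte markers, 13 were not analysed here, among them Cd3e and S100a8. The other 5 summed to 19.42 to 111.6, with Ccr2 at a median of 13.75. Border-associated macrophages also express several of the 9 genes, Csf1r and the C1q genes among them, and their part in the counts was not tested.

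Promoter sequences were drawn from RefSeq (GRCm38.p6) for 6 of the 9 genes, P2ry12, C1qb, C1qc, Cx3cr1, Aif1 and Trem2, as windows from 250 bases before to 50 bases after the start. PU.1 (Spi1) is the ETS-family factor that specifies macrophages and microglia, so the PU.1-like sequence GAGGAAG was searched on both strands. It was found in C1qc and Trem2, once each, and in 13.6% of 32851 promoters of the same length. The shorter ETS core GGAA, which the longer sequence contains, was in all 6 windows and in 96.0% of all promoters. TATAAA was in none of the 6 and in 13.6% of all. The stretches of Trem2 and C1qc that hold the match are printed because PU.1 is the lineage factor, and that of C1qb, the cluster neighbour of C1qc, as a window without it. Capitals mark the match, which reads CTTCCTC here because it lies on the other strand. It begins 41 bases before the Trem2 start and 194 before the C1qc start. The C1qc stretch ends 152 bases before its RefSeq start, at the edge of the annotated gene. A match is a match of letters only.
Trem2, chr17:48346151-48346400, plus strand: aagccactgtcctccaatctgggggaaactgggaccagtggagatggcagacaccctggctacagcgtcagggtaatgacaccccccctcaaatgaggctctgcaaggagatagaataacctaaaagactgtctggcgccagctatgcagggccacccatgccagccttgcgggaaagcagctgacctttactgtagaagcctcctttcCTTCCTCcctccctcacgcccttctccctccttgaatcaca
C1qc, chr4:136893066-136893164, minus strand: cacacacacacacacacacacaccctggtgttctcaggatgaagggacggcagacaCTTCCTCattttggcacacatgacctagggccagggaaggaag
C1qb, chr4:136886201-136886450, minus strand: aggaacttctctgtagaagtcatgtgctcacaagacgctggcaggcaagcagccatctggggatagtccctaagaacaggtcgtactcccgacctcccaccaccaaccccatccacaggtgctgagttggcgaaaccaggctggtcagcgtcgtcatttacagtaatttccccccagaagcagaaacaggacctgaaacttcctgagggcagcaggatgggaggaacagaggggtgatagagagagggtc

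The 9 genes lie on 6 chromosomes (GRCm38, GENCODE M21; all are annotated as protein coding, and counts are over whole genes). The receptors are Cx3cr1 (chromosome 9, 119901616 to 120069879, minus strand), P2ry12 (chromosome 3, 59216272 to 59262871, minus), Csf1r (chromosome 18, 61100598 to 61132149, plus) and Trem2 (chromosome 17, 48346401 to 48354147, plus). Tmem119 lies on chromosome 5 (113793729 to 113800516, minus) and Aif1 on chromosome 17 (35170991 to 35176068, minus). The 3 C1q genes form a cluster on chromosome 4, all on the minus strand, in the order C1qb (136880129 to 136886187), C1qc (136889804 to 136893065) and C1qa (136895917 to 136898803), with gaps of 3616 and 2851 bases. Csf1r shares 873 exonic bases, 15.1% of its own, with Hmgxb3 on the opposite strand. Cx3cr1 shares 78 (1.7%) with the antisense gene Gm33858, and P2ry12 shares 9 with Med12l. The sources used here do not say how strand was handled in counting, so the counts of these genes may include some reads of their partners.

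Levels of the 9 genes were compared as normalised counts per kilobase. Over the union of annotated exons, C1qa (808.8 ± 51.9, SD over 30 libraries) and C1qb (776.5 ± 51.5) were highest, with overlapping ranges. C1qc (521 ± 26.7), Csf1r (428.7 ± 20.1) and P2ry12 (392.9 ± 36.5) came next, each overlapping its neighbour, and lay below C1qb and above Cx3cr1 without overlap. Cx3cr1 (280.6 ± 11.7) and Tmem119 (232.1 ± 13.4) overlapped each other. Aif1, which encodes the calcium-binding protein IBA1 used to stain microglia, and Trem2 were lowest and overlapped, at 64.19 ± 6.16 and 61.74 ± 5.15. The order depends on the length for 2 genes. Over the APPRIS principal transcript, the annotation's main isoform, Trem2 (1088 bases against 4946 in the exon union) stood at 280.7 ± 23.4, beside Cx3cr1 at 281.4 ± 11.8. C1qc then stood at 836.3 ± 42.9, beside C1qa and C1qb, and Aif1 was lowest at 112.4 ± 10.8.

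C1q is assembled from equal numbers of the chains encoded by C1qa, C1qb and C1qc. Per kilobase of principal transcript, the ratio of C1qa to C1qb was 1.04 ± 0.0619, that of C1qa to C1qc 0.968 ± 0.0581 and that of C1qb to C1qc 0.929 ± 0.0509 (SD, n = 30). The ratio of C1qa to C1qb was 1.04 in WT vehicle, 1.04 in HT vehicle, 1.04 in HT fluoxetine and 1.06 in HT lithium libraries. That of C1qa to C1qc was 0.938, 0.97, 0.976 and 0.991 in the same order of conditions, and that of C1qb to C1qc was 0.9, 0.939, 0.944 and 0.935. Ranges over libraries overlapped between all 4 conditions for each ratio. The longer exon union of C1qc lowers its level, as above.

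The spread of single genes between libraries of 1 group ran from 4.08% (Tmem119) to 9.64% (P2ry12). The within-group SD was 4.72% for Cx3cr1, 4.56% for Csf1r, 5.27% for C1qc, 6.75% for C1qa, 6.7% for C1qb, 8.97% for Trem2 and 9.64% for P2ry12. The SD that counting alone would give was 2.02% to 5.75% for these 7 genes. Tmem119 (4.08%, counting 4.34%) and Aif1 (8.43%, counting 10.1%) varied no more than counting gives. Only 0.965% of 1554 genes of like level had a smaller SD than Tmem119, against 78.4% of 1669 genes for P2ry12. That share was 1.67% for Aif1, 22% for Cx3cr1, 22.7% for Csf1r and 25.8% for C1qc. It was 43% for Trem2, 50.2% for C1qb and 51.1% for C1qa.

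The first question was whether the HT genotype alone moves these genes. None of the 9 was called between HT vehicle and WT vehicle libraries (limma, adjusted p under 0.05 over 16824 genes), where 0.731% of all genes were called. None passed an unadjusted p under 0.05 either, against 6.6% of all genes, and edgeR and DESeq2 called 0 as well. Estimates ran from a change of -0.526% (C1qc) to 5.09% (Trem2), and the lowest and highest bounds of the 95% intervals were -8.85% (Aif1) and 15.3% (Trem2). Estimates were above 0 for 8 of the 9, with a median log2 fold change of 0.033 (-0.001 over all genes). All percent and fold changes come from log2(normalised count + 1), on which changes of weakly expressed genes look smaller than they are.

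The receptor genes showed these levels. Cx3cr1, the receptor for the neuronal chemokine fractalkine, stood at 1258 ± 29 (SD, n = 8) in WT vehicle, 1272 ± 73.3 (n = 7) in HT vehicle, 1253 ± 41.6 (n = 8) in HT fluoxetine and 1276 ± 68.5 (n = 7) in HT lithium libraries. P2ry12, the ADP receptor that steers microglial processes, stood at 977.7 ± 91.1, 998.4 ± 104, 978.5 ± 81 and 1054 ± 94.9 in the same order. In both genes the 4 conditions overlapped, and P2ry12 ranged from 871.6 to 1194 over all libraries.

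Trem2, the lipid-sensing receptor that signals through Tyrobp, read 266, 314, 289 and 286 in WT females, 290, 308, 269 and 313 in WT males, 280, 323, 323 and 251 in HT vehicle females and 315, 333 and 315 in HT vehicle males. The 3 HT vehicle males lay above all 4 WT males, while in females the groups overlapped. The genotype difference was 0.07 on the log2 scale (SE 0.0649, limma adjusted p = 0.95) and the test of its difference between the sexes called 0% of all genes. Trem2 and Csf1r were the 2 of 9 genes whose male genotype groups did not overlap, where 5.82% of all genes did not.

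Csf1r, the receptor for colony-stimulating factor 1 and interleukin 34, read 2495, 2490, 2474 and 2519 in WT males, 2643, 2625 and 2605 in HT vehicle males, 2563, 2459, 2420 and 2446 in HT fluoxetine males and 2679, 2523, 2294 and 2342 in HT lithium males. HT vehicle males thus lay above WT males and above fluoxetine-treated males without overlap. Females read 2393, 2467, 2453 and 2442 in WT, 2555, 2462, 2422 and 2203 in HT vehicle, 2529, 2460, 2688 and 2459 in HT fluoxetine and 2215, 2411 and 2525 in HT lithium, and these groups overlapped. In males the genotype difference was 0.07 (SE 0.052, limma adjusted p = 1) and the fluoxetine difference -0.09 (SE 0.052, limma adjusted p = 0.958). Csf1r was the 1 member whose male fluoxetine and vehicle groups did not overlap, against 6.1% of all genes.

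**Figure D2:**
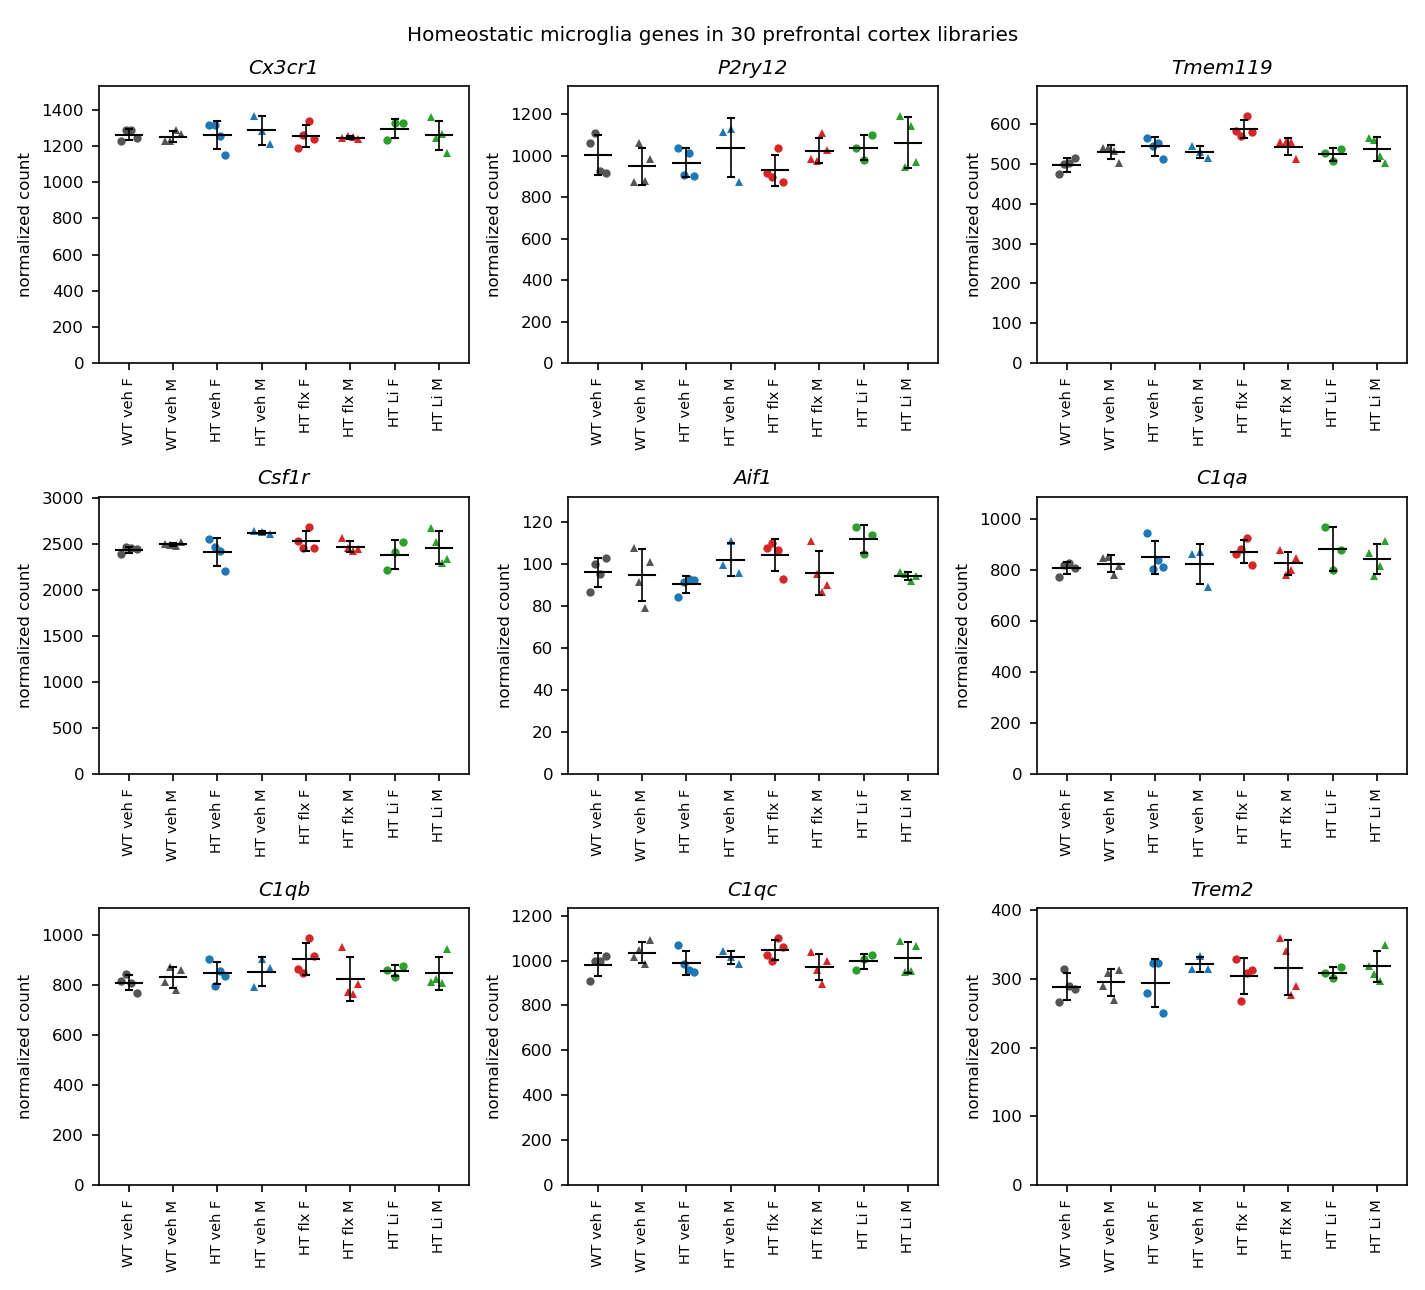
Normalised count (linear axis from 0) of each of the 9 genes in 30 libraries by genotype, treatment and sex (veh, vehicle; flx, fluoxetine; Li, lithium; F, female, circles; M, male, triangles). Horizontal lines are group means and bars are 1 SD. Groups lie at similar heights in every panel; fluoxetine-treated females are highest for Tmem119 (570.6 to 620.6).

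Fluoxetine was compared with vehicle within HT mice. None of the 9 genes was called (0.0357% of all genes were), nor by edgeR or DESeq2. Estimates ran from -2.31% (P2ry12) to 5.38% (Tmem119), with interval bounds from -11% (P2ry12) to 14.8% (Aif1) and a median log2 fold change of 0.0132 (-0.0016 over all genes). Tmem119 was the 1 of 9 with an unadjusted p under 0.05 (limma adjusted p = 1), where 2.63% of all genes had one.

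Lithium within HT mice gave a similar count. None of the 9 genes was called (0.0892% of all genes were), nor by edgeR or DESeq2, and 0 had an unadjusted p under 0.05 (5.72% of all genes). Estimates ran from -3.81% (Csf1r) to 7.35% (Aif1), with bounds from -8.72% (Csf1r) to 19.3% (Aif1). The median log2 fold change was 0.005 (-0.0039 over all genes). Both drug comparisons share the HT vehicle libraries.

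**Figure D3:**
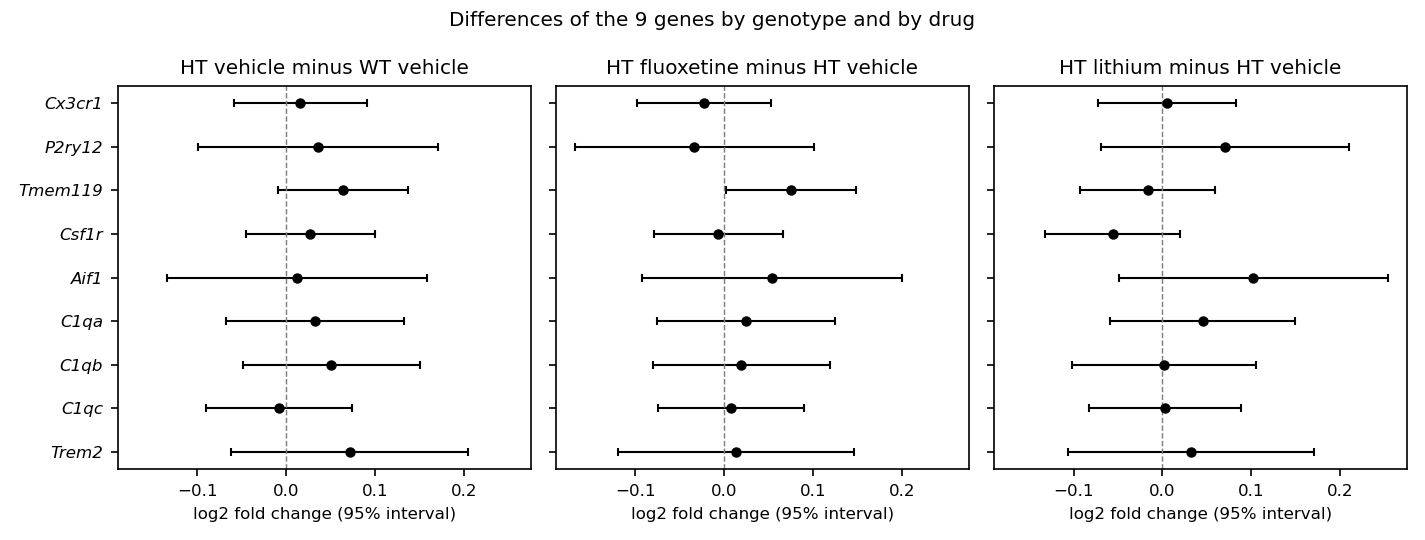
Log2 fold change (points) and its 95% interval (bars) of the 9 genes for genotype, fluoxetine and lithium, from the limma fit over 30 libraries. All intervals include 0 except that of Tmem119 under fluoxetine (0.0023 to 0.1488), and the highest bound of the genotype panel is 15.3% (Trem2).

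Tmem119, a transmembrane protein used to tell microglia from other brain macrophages, gave the only call among the 9 genes in the comparisons run. It read 474, 499, 502 and 516 in WT females and 541, 541, 532 and 503 in WT males. In HT vehicle libraries it read 565, 546, 553 and 511 in females and 545, 529 and 514 in males. In HT fluoxetine libraries it read 582, 571, 621 and 579 in females and 554, 554, 555 and 511 in males, and in HT lithium libraries 527, 506 and 538 in females and 566, 559, 521 and 503 in males. Fluoxetine-treated females were the highest group: their range did not overlap that of WT, HT vehicle or HT lithium females. Males of all 4 conditions overlapped.

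Tmem119 was higher in fluoxetine-treated HT libraries (565.8 ± 31.4, SD, n = 8) than in WT vehicle libraries (513.5 ± 23.5, n = 8). The log2 fold change was 0.14 (SE 0.0343, 95% interval 0.07 to 0.21, limma adjusted p = 0.0328), a 10.1% difference. It was the 1 of 9 genes called in this comparison, in which genotype and drug differ together and 1.49% of all genes were called, and edgeR and DESeq2 called it too. The call was lost in 8 of 16 fits that left out 1 library (HT fluoxetine female 3 and males 1, 2 and 3, WT females 1 and 3, and WT males 3 and 4; adjusted p up to 0.0857, log2 fold change 0.13 to 0.14). It was also lost when only the compared groups entered the fit (limma adjusted p = 0.0722). The steps that make it up were not called: 0.06 for genotype (limma adjusted p = 0.87) and 0.08 for fluoxetine (adjusted p = 1), and they share the HT vehicle libraries. Striatal marker sums were 6456 to 48790 in the fluoxetine-treated and 6385 to 29260 in the WT libraries, and their part in the difference was not tested.

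Tmem119 was also 6.6% higher in fluoxetine-treated than in lithium-treated HT libraries (log2 fold change 0.09, limma adjusted p = 0.648), where 0% of all genes were called and 6.86% had an unadjusted p under 0.05. Within females, the genotype difference was 9.18% (limma adjusted p = 0.708) and the fluoxetine difference 8.21% (limma adjusted p = 0.997). In males they were 0.0406% and 2.62%. No member was called within females by genotype (0.256% of all genes) or fluoxetine (0%), nor within males by genotype (0.226%). At an unadjusted p under 0.05, Tmem119 was the 1 member by genotype in females (5.17% of all genes), and Tmem119 and Aif1 the 2 by fluoxetine (3.85%). The differences between the sexes did not pass the test (genotype by sex, log2 0.13, limma adjusted p = 1; fluoxetine by sex, 0.08, adjusted p = 0.81).

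In females, Tmem119 was the 1 member whose fluoxetine and vehicle groups did not overlap (1.62% of all genes) and the 1 whose fluoxetine and lithium groups did not (5.25%). Tmem119 and C1qb did not overlap between fluoxetine-treated HT and WT females (6.03% of all genes). C1qb, which encodes the B chain of C1q, read 863, 846, 988 and 915 in those HT females and 816, 842, 808 and 769 in the WT females. In males, fluoxetine-treated C1qb values (951, 772, 763 and 804) overlapped the WT values (811, 869, 781 and 859).

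Aif1 showed the largest differences within a sex. It read 84.5, 91.8, 93.1 and 92.5 in HT vehicle females, 118, 105 and 114 in HT lithium females, 108, 110, 107 and 93.0 in HT fluoxetine females and 87.0, 100, 95.2 and 103 in WT females. Lithium-treated females lay above HT vehicle and WT females without overlap, and Aif1 was the only member to do so; 3.6% of all genes did not overlap between lithium and vehicle females, and 6.92% between lithium and WT females. In males the lithium values (96.3, 95.5, 91.9 and 94.5) and the vehicle values (99.8, 111 and 95.8) overlapped, as did the WT values (108, 91.7, 79.3 and 101).

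In females the lithium difference in Aif1 was 24.3% (log2 fold change 0.31, 95% interval 0.10 to 0.53, limma adjusted p = 1), and 0% of all genes were called there. It was the 1 member with an unadjusted p under 0.05, as 3.55% of all genes had. In males it was -7.28% (limma adjusted p = 0.618). The test of the difference between the sexes gave 0.42 (SE 0.148, limma adjusted p = 0.47) and was not called, in a test that called 0% of all genes and gave 10% an unadjusted p under 0.05. Fluoxetine by sex gave 0.30 for Aif1 and 0.16 for Csf1r (limma adjusted p = 0.779 for both). These were the 2 of 9 genes with an unadjusted p under 0.05, against 5.96% of all, and 0% of all genes were called. Aif1 rests on a mean of 97.33 reads per library, the fewest of the 9.

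Sex itself was compared over the 4 pairs of groups, female minus male. None of the 9 genes was called (0.214% of all genes were; edgeR and DESeq2 called 0 of the 9). Estimates ran from -4.29% (Trem2) to 4% (Aif1). Lithium-treated HT against WT libraries also gave 0 of 9 (1.97% of all genes), from -1.98% (Csf1r) to 8.29% (Aif1).

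Ligands and signalling partners of these receptors were given by a list of 12 genes. None was called by genotype, fluoxetine or lithium (median log2 fold change by genotype -0.0188). Cx3cl1, the ligand of Cx3cr1, stood at 24600 ± 1040 (SD, n = 8) in WT vehicle and 23510 ± 1370 (n = 7) in HT vehicle libraries. Il34, the main neuronal ligand of Csf1r, stood at 1841 ± 91.7 and 1750 ± 125. Tyrobp, the adaptor through which Trem2 signals, stood at 282.3 ± 11.7 and 277.8 ± 18. The differences of these 3 genes lay between -0.07 and -0.02 on the log2 scale, none called (lowest limma adjusted p = 0.925).

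Of the same list, Tgfb1, the cytokine that maintains the homeostatic programme, was 0.17 higher in HT vehicle (limma adjusted p = 0.534). Syk, the kinase downstream of Tyrobp, was 0.19 higher (limma adjusted p = 0.632). Csf1, the other ligand of Csf1r, stood at 599.9 ± 88.3 (n = 7) in HT lithium and 519.4 ± 23.7 (n = 7) in HT vehicle libraries (log2 fold change 0.18, limma adjusted p = 0.661). None of these differences passed the test. By sex, Csf1 stood at 652.4 ± 76.8 (n = 4) in lithium and 508 ± 13.6 (n = 3) in vehicle males. In females it stood at 529.9 ± 40.6 (n = 3) and 527.9 ± 27.8 (n = 4). The values by sex are given as a description.

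Other genes of microglia did include calls. Of 52 other microglia and macrophage genes tested, 2 rose by genotype and none fell, Plcg2 and Slc2a5 (edgeR called 2 and DESeq2 3), where 0.731% of all genes were called. In this list 36 estimates were above 0 and 16 below, with a median log2 fold change of 0.0603. Over all genes 8295 were above and 8528 below, with a median of -0.001. This list and the others were chosen with earlier results of these data known, so their counts are no independent test against all genes. Plcg2 encodes phospholipase C gamma 2, which acts downstream of Trem2 in microglia. It lies on chromosome 8 (117498291 to 117635142, plus strand). Slc2a5 encodes the fructose transporter GLUT5, which marks microglia in the brain, and lies on chromosome 4 (150119283 to 150144169, plus strand).

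Plcg2 read 99.5, 112, 109 and 110 in WT females, 120, 116, 131 and 119 in WT males, 150, 148, 172 and 148 in HT vehicle females and 175, 154 and 156 in HT vehicle males. Every HT library, drug-treated ones included (147.8 to 186.2, n = 22), lay above every WT library (99.5 to 131.1, n = 8), a separation seen in 0.184% of all genes. The genotype difference was 38% (log2 fold change 0.46, SE 0.0561, limma adjusted p = 6.71e-06). It was 0.52 in females (limma adjusted p = 0.000345) and 0.41 in males (adjusted p = 0.0213). Neither fluoxetine (0.07) nor lithium (0.03) changed it past the test. Plcg2 was 0.54 higher in fluoxetine-treated HT (limma adjusted p = 2.09e-07) and 0.50 higher in lithium-treated HT libraries (adjusted p = 1.85e-06) than in WT, comparisons that share the WT libraries with the genotype comparison.

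Slc2a5 stood at 101.5 ± 7.55 (SD, n = 8) in WT vehicle and 139.7 ± 13.9 (n = 7) in HT vehicle libraries, whose ranges (92.8 to 111.3 and 121.6 to 165.6) did not overlap; 0.452% of all genes were so separated. The difference was 37.4% (log2 fold change 0.46, SE 0.0735, limma adjusted p = 0.000581). Within 1 sex it was called in males (0.54, limma adjusted p = 0.0213) but not in females. Females stood at 137.2 ± 6.63 (n = 4) in HT vehicle and 105.3 ± 6.24 (n = 4) in WT. Males stood at 143.1 ± 22 (n = 3) and 97.76 ± 7.51 (n = 4). The test of genotype by sex called 0% of all genes. Levels were 127.8 ± 10.6 (n = 8) under fluoxetine and 126.6 ± 13.7 (n = 7) under lithium, 0.33 (limma adjusted p = 0.0126) and 0.32 (adjusted p = 0.0179) above WT. The lithium call was lost without HT lithium female 1 (adjusted p = 0.0652) and when only the compared groups entered the fit (0.0651). The range of HT lithium libraries (110.6 to 146.9) overlapped that of WT vehicle libraries.

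Of 28 genes of the complement cascade and its regulators tested, 1 rose by genotype and none fell, against 0.731% of all genes called. The list's median was -0.0566 with 19 of 28 estimates below 0, against -0.001 and 8528 of 16824 over all genes. The gene that rose was C1ra (chromosome 6, 124512405 to 124523443, plus strand), a protease that is activated when C1q binds. It has a close copy, C1rb, not analysed here, so its count is uncertain. C1ra stood at 50.77 ± 4.76 (SD, n = 8) in WT vehicle and 77.98 ± 10.6 (n = 7) in HT vehicle libraries, and all 22 HT libraries (57.37 to 134.7) lay above all WT libraries (43.03 to 55.18), as for 0.184% of all genes. The difference was 53.4% (log2 fold change 0.62, SE 0.13, limma adjusted p = 0.0133), lost without HT vehicle male 3 (adjusted p = 0.0626). In the same comparison C1qa, C1qb and C1qc differed by 0.03, 0.05 and -0.01 on the log2 scale. C1ra is also expressed outside microglia.

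**Figure D4:**
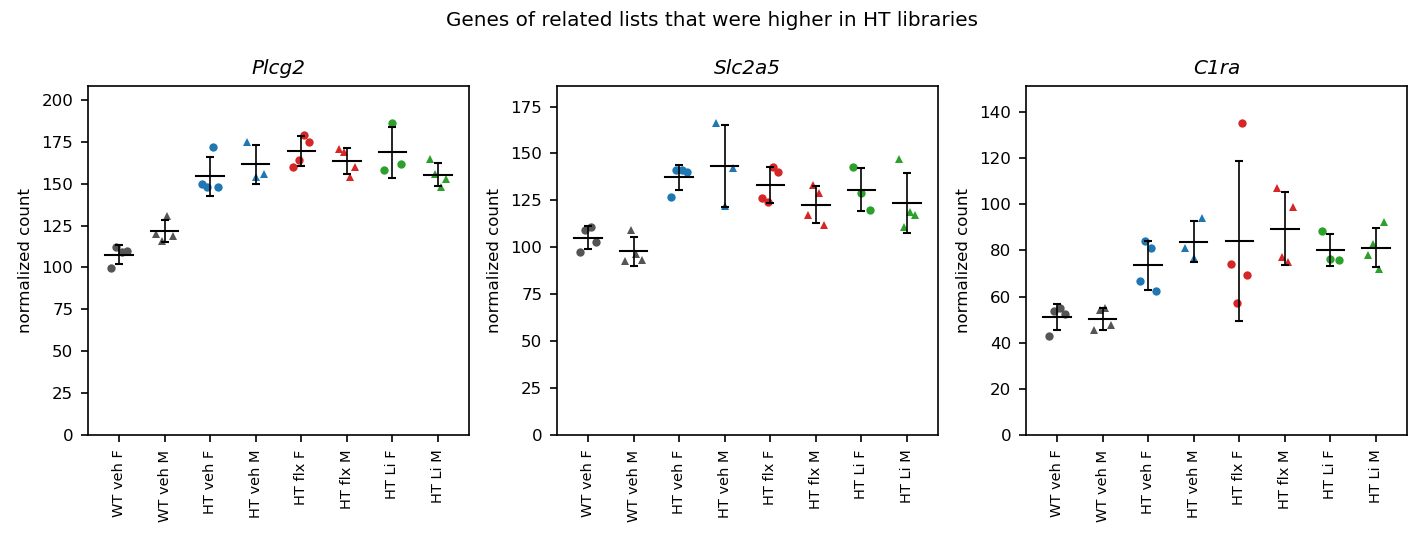
Normalised count (linear axis from 0) of Plcg2, Slc2a5 and C1ra in 30 libraries by genotype, treatment and sex (veh, vehicle; flx, fluoxetine; Li, lithium; F, circles; M, triangles), with group means (lines) and 1 SD (bars). For Plcg2 all HT libraries (147.8 to 186.2) lie above all WT libraries (99.5 to 131.1); for C1ra the gap is narrower (57.37 against 55.18).

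Lists of reactive microglia and of other macrophages held few calls. By genotype, fluoxetine or lithium, 0 of 22 disease-associated microglia genes, 0 of 18 inflammatory activation genes and 0 of 13 border-associated macrophage markers were called by limma, edgeR or DESeq2. Their median log2 fold changes by genotype were -0.0068, 0.0023 and -0.0507. At an unadjusted limma p under 0.05 there were 2, 1 and 0 genes by genotype (6.6% of all genes), 0, 1 and 0 by fluoxetine (2.63%), and 3, 2 and 2 by lithium (5.72%). In lithium-treated HT against WT libraries, where 1.97% of all genes were called, 4 further genes were called higher. Of these, Treml2 (0.56, limma adjusted p = 0.0334) was among 52 other microglia and macrophage genes tested. The chemokine Ccl6 (0.50, adjusted p = 0.0181) and the cholesterol hydroxylase Ch25h (1.24, adjusted p = 0.0468) were among the 22 disease-associated microglia genes. The adhesion molecule Icam1 (0.60, adjusted p = 0.0128) was among the 18 inflammatory activation genes. Ch25h had a WT mean of 9.47, an interval of 0.56 to 1.92 and rank 301 by p where 332 genes were called. Fits with 1 library left out called 196 to 503 genes in all and were not examined for these 4 genes. Of 14 endothelial and pericyte markers, Cldn5, Kdr and Rgs5 were also called higher in lithium-treated HT than in WT libraries (0.31, 0.33 and 0.23). The oligodendrocyte precursor markers Neu4 and Pdgfra were called lower (-0.25 and -0.16). Meningeal fibroblast marker sums were 22690 to 55090 in those lithium and 14750 to 31580 in those WT libraries, and their part in these calls was not tested. In fluoxetine-treated HT against WT libraries, 1.49% of all genes were called. Of the 28 complement genes, C1ra (0.72, limma adjusted p = 0.0013) and the regulator Cd59a (0.58, adjusted p = 0.0158) were called higher there. The regulator Srpx2 was called lower (-0.47, adjusted p = 0.0384), with means of 27 in HT and 37.1 in WT libraries. Fits with 1 library left out were not examined for Cd59a or Srpx2.

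Co-variation of the 9 genes was described after group means were removed, over 30 libraries. The values of 1 library share its depth and dissection, and both differed between libraries. Pearson r was positive in 33 of 36 pairs, with a median of 0.29 and a range from -0.16 to 0.71. The highest pairs were Cx3cr1 with Csf1r (0.71), Tmem119 with Csf1r (0.65) and Cx3cr1 with Tmem119 (0.59). The neighbouring C1q genes followed each other at 0.54 (C1qa with C1qc), 0.53 (C1qb with C1qc) and 0.5 (C1qa with C1qb), but Csf1r with C1qc (0.58) stood above each of these. Cx3cr1 and C1qb were lowest (-0.16). When HT vehicle female 1 and HT lithium male 4 were left out the median was 0.37, and with group means kept it was 0.3. Single pairs moved more: Cx3cr1 with Tmem119 was 0.46 without those libraries and 0.27 with group means kept. The C1q pairs were 0.36 to 0.43 and 0.5 to 0.57 under these settings, and Csf1r with C1qc 0.64 and 0.56.

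**Figure D5:**
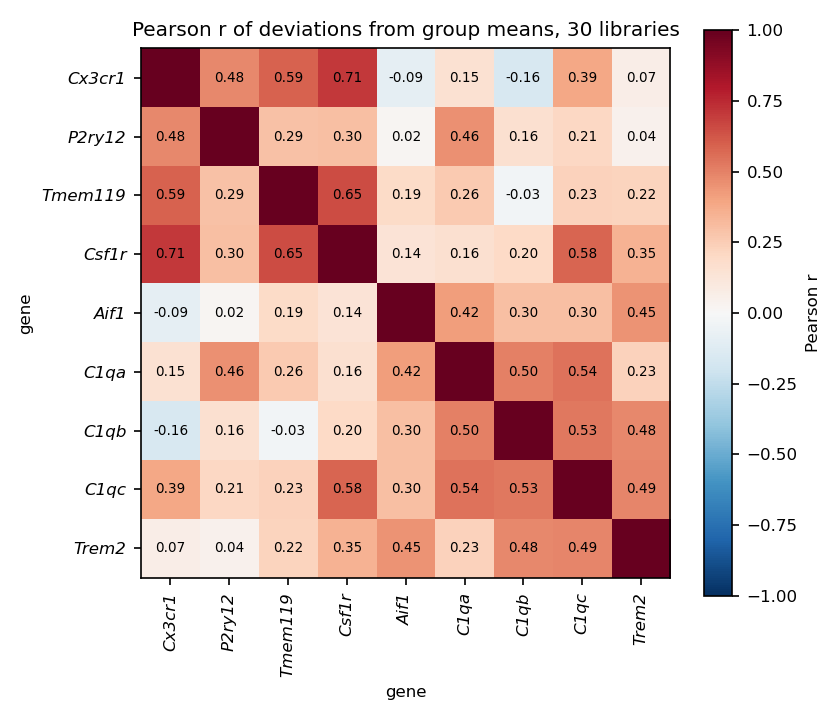
Pearson r (colour scale from -1 to 1, values printed) between deviations of the 9 genes from their group means over 30 libraries. Pairs among Cx3cr1, Tmem119 and Csf1r have r of 0.59 to 0.71, pairs among the C1q genes 0.5 to 0.54, and Csf1r with C1qc 0.58.

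The library highest for most of the genes was HT fluoxetine female 3, highest for 4 of 9, and the lowest was HT vehicle female 4, lowest for 3 of 9. The mean z-score of the 9 genes, again as deviations from group means, was then set against 12880 other genes with a mean of at least 50. The 10 most alike were Suds3 (r = 0.86), Rims3 (0.82), Samd4 (0.8), Egln1 (0.79), Ctss (0.79), Vsir (0.78), Cacnb3 (0.78), Ctnnbip1 (0.77), Plekho1 (0.77) and Arhgap30 (0.76). Of these, Ctss and Arhgap30 belonged to the list of other microglia and macrophage genes, while Rims3 and Cacnb3 encode neuronal proteins of the synapse and of calcium channels. The mean of that microglial list followed the 9 genes at r = 0.88, with 43 of 45 genes positive, against 6435 of all 12880 genes. Single genes of that list had a median r of 0.37, with Plcg2 at 0.3 and Slc2a5 at 0.16. Astrocyte markers followed the 9 genes at 0.76, and striatal and oligodendrocyte markers ran against the 9 genes at -0.68 and -0.65. All 10 astrocyte markers had a positive r, as had 11 of 12 meningeal fibroblast and 11 of 12 olfactory bulb and neuroblast markers. None of the 10 striatal or 10 oligodendrocyte markers had one. These values describe libraries whose tissue makeup varied, and the part of that variation was not tested.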

How the data were processed

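Salmon 0.11.2, DESeq2 1.19.11 and R 3.6.0 are named with build GRCm38 in the submitters' processing notes. The sources used here do not state annotation release, filters or strand handling. The authors deposited a signal per gene, which from its values is counts divided by a size factor per library. All columns were whole multiples of 1 step, which gave whole reads for 100% of values (within 0.01).

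Identifiers were matched to GENCODE M21 (18227 with a symbol, 13 without). Tests used limma 3.58.1 in R 4.3.3 (trend, robust) on log2(normalised count + 1) for genes with a mean of at least 10, with all 30 libraries in 1 fit and a mean per group. Comparisons over both sexes average the female and male contrasts. P-values were adjusted by Benjamini-Hochberg over 16824 genes and called under 0.05. Alternatives were edgeR 4.0.16 (quasi-likelihood) and DESeq2 1.42.0 on recovered reads, TMM scaling, pseudocounts, filters, a replicate block, fits of only the compared groups and left-out libraries. The fit was tested on simulated data. Lengths of APPRIS principal transcripts were added after seeing the data.

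The 9 genes and all lists were chosen with earlier results of these data known. Named genes were all 9, list members called in a comparison (at most 4 a list, by p), receptor ligands and partners, and the 10 genes most alike. Vehicle males of both genotypes deviated together by the replicate number of the sample titles (r = 0.17, 0.185 and 0.278 over 3 pairs). Other groups did not in every pair. The highest values were in HT fluoxetine and HT vehicle females, at 0.413, 0.392 and 0.446 for numbers 1, 3 and 4. Number 2 gave -0.108 there. The lowest value was -0.43, for number 2 of HT fluoxetine and HT vehicle males. Precision is limited by counting for Aif1.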

Additional observations from a re-analysis of the deposited data

Results flagged for a closer look

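Within groups of 4 libraries, 4 values of the 9 genes stood far from the other 3, by a gap whose share of the group's range was above Dixon's 95% critical value. With 54 groups examined, chance flags about 1 in 20. Tmem119 was 510.9 in HT fluoxetine male 4, against 553.7 to 555.2 in the other 3. Aif1 was 93.04 in HT fluoxetine female 4, against 106.8 to 109.5, and 84.51 in HT vehicle female 1, against 91.77 to 93.1. C1qb was 941.2 in HT lithium male 4, against 805.2 to 821.9; that library also had the highest sums of olfactory bulb, meningeal and border-associated macrophage markers (25530, 55090 and 1987), whose part was not tested.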

How the results depend on the processing

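The count of members called was 0 for genotype, fluoxetine, lithium, fluoxetine against lithium, sex and lithium-treated HT against WT under every alternative run, including edgeR, DESeq2, TMM scaling, other pseudocounts and filters. For fluoxetine-treated HT against WT it was 1, and 0 when only the compared groups entered the fit; leaving out 1 library gave 0 to 1. With the replicate block the counts were the same, 0 and, for fluoxetine-treated HT against WT, 1 (Tmem119, log2 fold change 0.139, limma adjusted p = 0.03). The block changed no call of the 9 genes. It used the replicate numbers of the sample titles, but HT lithium females 2 and 3 are numbered 3 and 4 in their library names. A block by library name was not run. With HT vehicle female 1 and HT lithium male 4 both left out, the sign turned for small, uncalled differences: Csf1r 0.008 for fluoxetine, and Tmem119 0.009, C1qb -0.009 and Trem2 -0.001 for lithium. With 1 library left out, signs of uncalled differences also turned, over these ranges. For genotype they were Cx3cr1 -0.006 to 0.038, Aif1 -0.029 to 0.044 and C1qc -0.026 to 0.006. For fluoxetine they were Csf1r -0.028 to 0.008, C1qa -0.017 to 0.05, C1qb -0.017 to 0.04, C1qc -0.008 to 0.027 and Trem2 -0.024 to 0.045. For lithium they were Cx3cr1 -0.017 to 0.028, C1qb -0.025 to 0.023, C1qc -0.014 to 0.022 and Trem2 -0.005 to 0.057. The cause was not tested. Over all genes, the counts that the background shares rest on moved by over 1.5 times in these cases. A mean of at least 50 gave 68 against 123 for genotype and 165 against 251 for fluoxetine-treated HT against WT. DESeq2 gave 12 against 6 for fluoxetine, 13 against 0 for fluoxetine against lithium and 79 against 36 for sex. Only the compared groups gave 11 against 6 for fluoxetine, 5 against 15 for lithium and 208 against 332 for lithium-treated HT against WT. With 1 library left out, fluoxetine fell to 3 (HT fluoxetine females 2 and 4 and males 2 and 4; HT vehicle females 2 and 4 and males 1 and 2), and lithium to 8 (HT lithium female 1) and 9 (male 3). Lithium-treated HT against WT gave 196 (HT lithium female 3), 219 (WT female 3) and 503 (HT lithium male 2), and fluoxetine against lithium 4 (HT lithium female 1). Genotype in females (43) gave 20 with a mean of at least 50, 11 with only the compared groups and 28 without WT female 3. Genotype in males (38) gave 21, 12 and, with 1 library left out, 19 (HT male 1, WT male 4), 20 (HT male 3) or 25 (HT male 2, WT male 2). From 0, DESeq2 gave 2 for fluoxetine in females, 3 for lithium in females and 1 for fluoxetine by sex. Left-out libraries gave 1 for fluoxetine in females (HT fluoxetine female 3), 4 for lithium in females (HT lithium female 2) and, for lithium by sex, 2 (HT lithium female 1) or 1 (HT vehicle female 4). Depth limits Aif1 most.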

Other observations

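Among the other lists examined, oligodendrocyte precursor markers held the only genes called lower by genotype. Pdgfra, the growth factor receptor of these cells, stood at 1440 in HT vehicle and 1630 in WT vehicle libraries (log2 fold change -0.18, limma adjusted p = 0.0303), and Neu4, a sialidase, at 234 and 273 (-0.21, limma adjusted p = 0.0466). They were 2 of 9 markers tested, with a median of -0.1204, against 0.731% of all genes called and a median of -0.001 over all genes. Neu4 ranked 121 by p where 123 genes were called. Fits with 1 library left out called 88 to 116 genes in all, and Neu4 and Pdgfra were not examined in them. Nfkbia, an inhibitor of NF-kappaB, was lower in females (506) than in males (597), with a log2 difference of -0.24 (limma adjusted p = 0.0122), the only call by sex among 18 inflammatory activation genes, against 0.214% of all genes.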
